A study of Bos taurus with 6 samples.

Results

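The BCL2 family and MDM2 were examined in bovine 8-cell embryos, as 9 genes chosen by symbol: MCL1, BCL2, BCL2L1, BCL2L11, BAX, BAK1, BID, BBC3 and MDM2. All 9 were in the files, each once, among 18862 genes. RNA was sequenced from 6 libraries, 3 of control embryos and 3 of embryos cultured with 200 pmol/L GSKA, an inhibitor of lactate dehydrogenase A that the study used to lower histone lactylation. All embryos were produced by in vitro fertilization from slaughterhouse oocytes, and the medium of both groups held an equal amount of DMSO. The labels enter female as tissue and embryo as cell type. The study calls its replicates biological, but the sources used here do not say how many embryos went into a library or whether cultures were separate, and p-values measure the spread between these libraries. Each library is RNA of embryo material with no separate cells, so fewer cells and less RNA per cell cannot be told apart. FPKM, the number of fragments scaled by transcript length and by the size of the library, corrects for length and library size but keeps no counts, and the depth of the libraries is unknown.

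Proteins of the BCL2 family meet at the outer membrane of the mitochondrion and set whether a cell starts apoptosis from within. MCL1, BCL2 and BCL2L1 (BCL-XL) keep a cell alive by holding the pore formers BAX and BAK1 in check. The BH3-only proteins BID, BCL2L11 (BIM) and BBC3 (PUMA) sense damage or missing survival signals and set BAX and BAK1 free, after which cytochrome c leaves the mitochondrion and caspases are activated. MDM2 is the ubiquitin ligase that keeps the tumour suppressor p53 low, and in mammals p53 in turn raises transcription of MDM2, BAX and BBC3. MCL1 protein is short-lived, and in the mouse its loss is lethal around implantation.

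MCL1 was the most abundant of the 9 genes in every library and was lower after GSKA, BCL2L11 was also lower and BCL2L1 was higher, with no overlap between the groups for any of the 3. None of the 9 genes passed the test across all genes. Tests were run by limma on log2(FPKM + 1) for the 10654 genes that reached 1 FPKM in 3 or more libraries, with Benjamini-Hochberg adjustment, and 6 of the 9 genes met this filter. Of these 6, 0 had an adjusted p under 0.05, where 0.357% of all tested genes did. At an unadjusted p under 0.05 from limma, 2 of 6 were lower (4.03% of all tested genes) and 0 were higher (9.4%). Among the 6, every GSKA library lay below every control for 2 (6.45% of all tested genes) and above every control for 1 (12.9%). BAK1, BCL2 and BBC3 did not reach the filter in either group. The median log2 fold change of the 6 was -0.02, beside 0.09 for all tested genes.

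The libraries differed in ways that bear on these values. Mitochondrial transcripts took 13.2% of the FPKM in control replicate 1 and 5.31% to 7.26% in the other 5 libraries, and the summed FPKM ranged from 497035 to 581839. Oocyte and embryo genes such as BMP15, GDF9, ZP3 and POU5F1 were present in all 6 libraries, at a summed FPKM of 674 to 1155 over the 6 genes of that list in the files. The 9 cumulus and granulosa markers in the files summed to 38.5 to 54.2 FPKM in the controls and to 70.1 to 80.7 after GSKA, mostly STAR and TNFAIP6. Among them AMH, INHA and CYP19A1 did not exceed 0.935 FPKM in any library. The 5 sperm markers summed to 0 to 0.872 FPKM in the controls and to 6.78 to 7.76 after GSKA. The 5 blood markers summed to 7.58 to 12.8 and 2.58 to 8.64, mostly HBA. The leukocyte gene CD3E was at 0 to 1.285 FPKM in the controls and 1.107 to 1.863 after GSKA. PTPRC, LYZ and CD74 did not exceed 0.875 FPKM in any library. The part of these differences in the results below was not tested, apart from the fits without control replicate 1 and with other scaling.

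**Figure D1:**
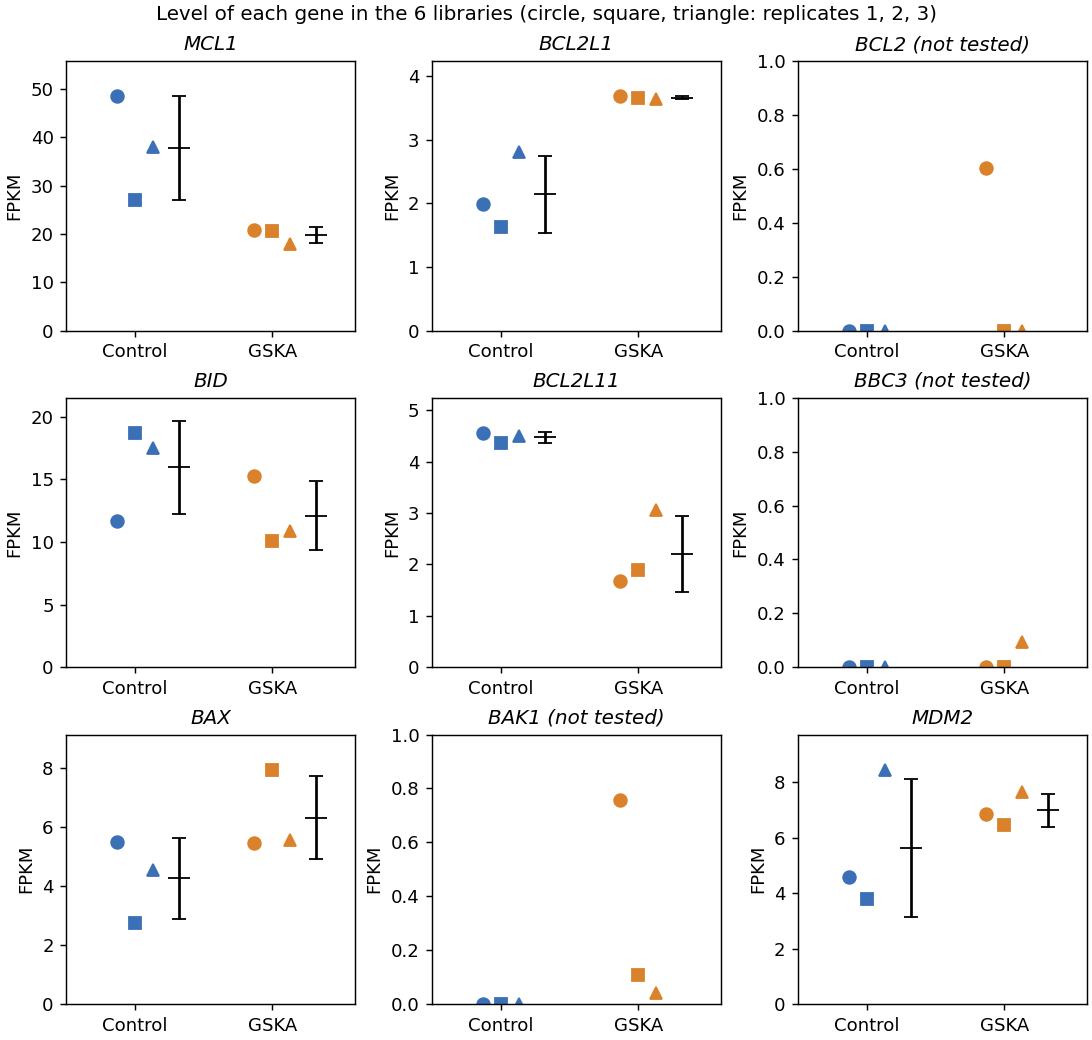
FPKM of each of the 9 genes in the 3 control libraries (blue) and the 3 GSKA libraries (orange), each panel on its own linear axis from 0. Bars give the mean and SD (n = 3) for the 6 genes that were tested. MCL1 and BCL2L11 are lower and BCL2L1 higher in all GSKA libraries, while BCL2, BBC3 and BAK1 stay under 1 FPKM.

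Among the survival proteins, MCL1 lies on chromosome 3 (20129373 to 20134008, ENSBTAG00000015154). All coordinates here are those of the deposited files, and the sources used name no genome build. MCL1 was at 48.5, 27.0 and 37.9 FPKM in the controls, replicates 1 to 3 in order, against 20.8, 20.6 and 17.9 FPKM in the same order under GSKA. The highest GSKA library was below the lowest control, and the GSKA libraries were close together while the controls were spread. Mean FPKM was 37.8 ± 10.8 for controls and 19.8 ± 1.61 for GSKA (SD, n = 3 each), a ratio of control to GSKA of 1.91. The log2 fold change was -0.87 (standard error 0.284, 95% interval -1.48 to -0.25, unadjusted p = 0.00935 and adjusted p = 0.209 from limma). An exact permutation test of the 6 libraries gave p = 0.1 (two-sided), the smallest that 3 against 3 allow. Control replicate 1, which had the largest mitochondrial share, also had the highest MCL1, and without it the log2 fold change was -0.67 (unadjusted p = 0.0351, adjusted p = 0.343 from limma). MCL1 stood between the 77.2nd and 88.6th percentile of the genes above 0 in each library.

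BCL2L1, on chromosome 13 (61220111 to 61271367, ENSBTAG00000006526), was expressed at a far lower level and differed in the other direction. Its values were 1.99, 1.62 and 2.81 FPKM without the inhibitor and 3.69, 3.66 and 3.65 FPKM with it. All 3 GSKA libraries were above the highest control. Their coefficient of variation was 0.533%, against 28.3% in the controls. Over the tested genes the median coefficient of variation was 24.0% after GSKA and 36.7% in the controls, and 8 of 10654 genes were as tight as BCL2L1 after GSKA. Mean FPKM was 2.14 ± 0.607 in controls and 3.67 ± 0.0195 under GSKA (SD, n = 3 each), a ratio of GSKA to control of 1.71. On the log2(FPKM + 1) scale the fold change was 0.59 (standard error 0.363, 95% interval -0.20 to 1.37, adjusted p = 0.522 from limma). This fit therefore allows anything from a 0.872-fold to a 2.59-fold value of FPKM + 1, a scale that understates folds of low genes.

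BCL2, the founding member of the family on chromosome 24 (61396513 to 61588241, ENSBTAG00000019302), was listed at 0 in all libraries except GSKA replicate 1, where it had 0.604 FPKM. MCL1 therefore carried 93.1% to 96.1% of the summed FPKM of the 3 survival genes in the controls and 82.9% to 84.9% after GSKA. BCL2L1 carried 3.94% to 6.90% in the controls and 14.7% to 16.9% after GSKA. Neither share overlapped between the groups, which follows from the opposite differences of MCL1 and BCL2L1.

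Of the BH3-only genes, BCL2L11, on chromosome 11 (1187496 to 1233256, ENSBTAG00000024105), had 4.56, 4.36 and 4.50 FPKM without the inhibitor and 1.67, 1.9 and 3.05 FPKM with it. The controls were nearly equal and all above the GSKA libraries, of which replicate 3 was the nearest to them. The coefficient of variation was 2.33% in the controls, where 34 of 10654 tested genes were as tight, and 33.5% after GSKA. The mean was 4.47 ± 0.104 and 2.21 ± 0.740 FPKM (SD, n = 3 each), a ratio of control to GSKA of 2.03. The log2 fold change was -0.80 (standard error 0.364, 95% interval -1.58 to -0.01, unadjusted p = 0.0482 and adjusted p = 0.367 from limma). The unadjusted p was above 0.05 in the blocked fit by replicate number (0.068) and without control replicate 1 (0.0692), 2 (0.0690) or 3 (0.0839) or GSKA replicate 1 (0.149) or 2 (0.123), and was 0.0375 without GSKA replicate 3 (limma).

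BID, which links death receptors to the mitochondrion and lies on chromosome 5 (109136740 to 109154244, ENSBTAG00000013988), was the second most abundant of the 9 genes in both groups. It was at 11.7, 18.7 and 17.5 FPKM without the inhibitor and 15.3, 10.1 and 10.9 FPKM with it. Control replicate 1 was low and GSKA replicate 1 high, so the groups overlapped. The log2 fold change was -0.37 (standard error 0.315, 95% interval -1.05 to 0.31, adjusted p = 0.652 from limma). With 1 library left out it ran from -0.56 without control replicate 1 to -0.25 without control replicate 2. BBC3, on chromosome 18 (54238253 to 54242265, ENSBTAG00000050313), was listed at 0 in 5 libraries and at 0.0924 FPKM in GSKA replicate 3.

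Of the pore formers, BAX, on chromosome 18 (55530826 to 55535003, ENSBTAG00000013340), had 5.49, 2.76 and 4.54 FPKM without the inhibitor and 5.45, 7.95 and 5.57 FPKM with it. GSKA replicate 1 lay just below control replicate 1, and the other GSKA libraries lay above all controls. The log2 fold change was 0.50 (standard error 0.366, 95% interval -0.30 to 1.29, adjusted p = 0.599 from limma). Once each library was scaled to the same FPKM sum (TPM), BAX was at 9.43, 5.56 and 8.16 TPM in the controls and at 9.91, 14.7 and 10.1 TPM after GSKA, with no overlap, and the adjusted p was 0.600. The log2 fold change was 0.27 without control replicate 2. BAK1, on chromosome 23 (7712944 to 7719279, ENSBTAG00000000428), had no FPKM above 0 in any control, against 0.757, 0.109 and 0.0416 FPKM under GSKA. It was above 0 in all GSKA libraries, at levels among the lowest 26% of detected genes, and no fold is given against a group listed at 0.

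**Figure D2:**
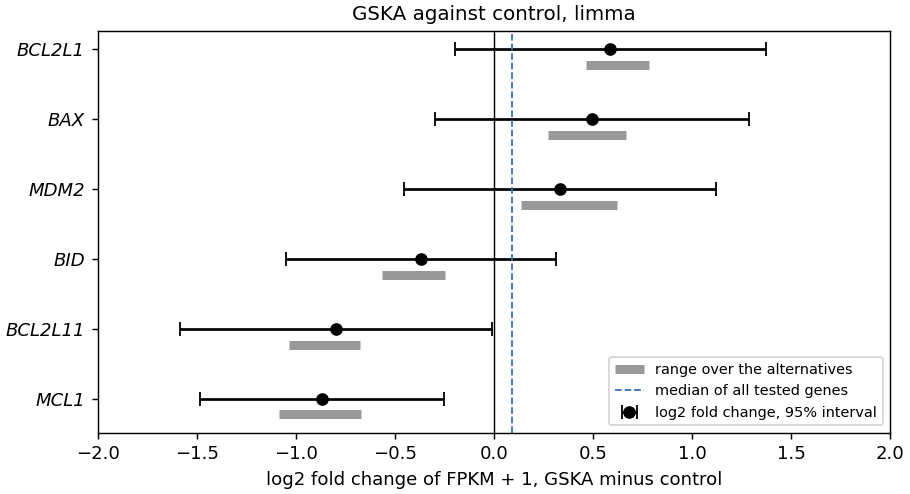
Log2 fold change of FPKM + 1 (GSKA minus control, x axis) for the 6 tested genes, with 95% intervals from limma. Grey bars give the range over the alternative settings and the dashed line the median of all tested genes, 0.09. The intervals of MCL1 and BCL2L11 lie below 0 and the other 4 include 0, and no gene had an adjusted p under 0.05.

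MDM2, on chromosome 5 (44979892 to 45005325, ENSBTAG00000010422), was at 4.58, 3.81 and 8.46 FPKM without the inhibitor and 6.86, 6.48 and 7.64 FPKM with it. Control replicate 3 was the highest of all 6 libraries and the other controls were the lowest. The mean was 5.61 ± 2.49 and 6.99 ± 0.591 FPKM (SD, n = 3 each), with a log2 fold change of 0.33 (standard error 0.364, 95% interval -0.45 to 1.12, adjusted p = 0.734 from limma). It was 0.14 without control replicate 2 and 0.62 without control replicate 3.

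In the order of levels, MCL1 came first and BID next in both groups, and their ranges overlapped neither with each other nor with the gene after them. In the controls MDM2, BCL2L11 and BAX followed with overlapping ranges, and BCL2L1 followed BAX with a range that just overlapped that of BAX. After GSKA the order was MDM2, BAX, BCL2L1 and BCL2L11, where MDM2 and BAX overlapped and each later neighbour was apart. By mean FPKM, BCL2L11 thus stood above BAX and BCL2L1 in the controls and below both after GSKA. Within the control libraries BAX over BCL2L11 was 1.204, 0.634 and 1.007, so BCL2L11 was above BAX only in control replicate 2. BCL2L1, BCL2L11, BAX and MDM2 each have more than 1 transcript in the annotation of the files, and the sources used here do not say how the authors combined transcripts into 1 FPKM, which limits comparison of levels between genes.

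The ratio of genes within 1 library does not change when all values of the library are multiplied by 1 factor, as in TPM scaling. Other scaling can change it. These ratios were chosen after the values had been seen and are given without a test. MCL1 over BCL2L1 was 24.4, 16.6 and 13.5 in the controls and 5.65, 5.62 and 4.91 after GSKA. MCL1 over BAX was 8.36 to 9.78 in the controls and 2.59 to 3.82 after GSKA, so the controls lay closer together in this ratio than in either gene. BCL2L11 over BAX was 0.831 to 1.58 in the controls and 0.239 to 0.548 after GSKA. BCL2L1 over BCL2L11 was 0.437, 0.373 and 0.624 in the controls and 2.20, 1.93 and 1.20 after GSKA. Of the 15 ratios between the 6 tested genes, 8 had no overlap between the groups, and these are not independent of each other or of the 3 genes above. The share over pairs of all tested genes was not computed, so this count cannot be read as particular to the family. MCL1 over BCL2L11 was among those that overlapped, at 6.20 to 10.6 in the controls and 5.87 to 12.5 after GSKA.

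**Figure D3:**
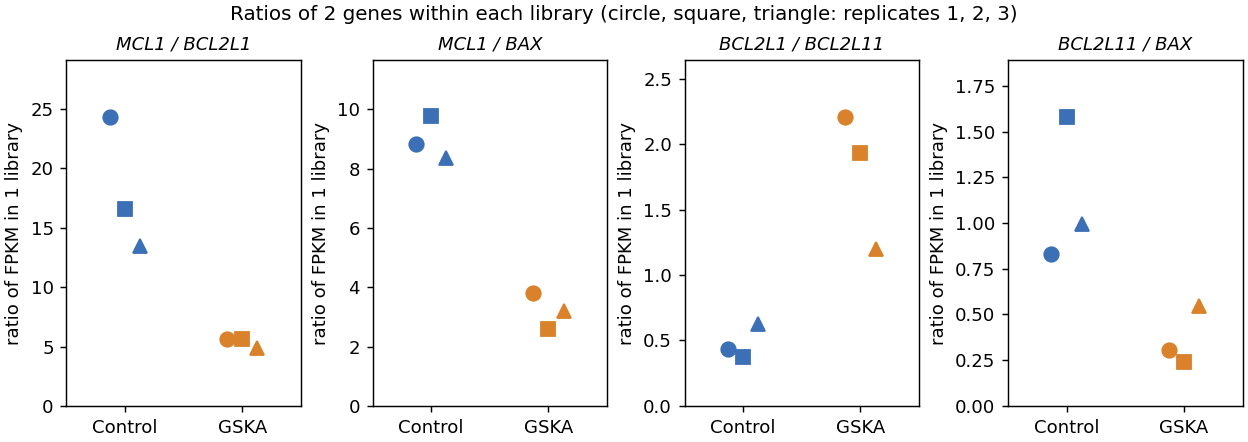
Ratio of the FPKM of 2 genes within each library (linear axes from 0), for the 3 control (blue) and 3 GSKA (orange) libraries. MCL1 over BCL2L1, MCL1 over BAX and BCL2L11 over BAX are lower in every GSKA library, and BCL2L1 over BCL2L11 is higher.

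Summed over the survival genes MCL1, BCL2 and BCL2L1, FPKM was 50.5, 28.6 and 40.7 in the controls and 25.1, 24.2 and 21.6 after GSKA. The death-promoting genes BAX, BAK1, BID, BBC3 and BCL2L11 summed to 21.8, 25.8 and 26.5 FPKM in the controls and to 23.1, 20.1 and 19.7 FPKM after GSKA. The ratio of survival to death-promoting FPKM was 2.32, 1.11 and 1.54 in the controls and 1.09, 1.21 and 1.097 after GSKA. Control replicate 2 fell within the GSKA range, so the groups overlapped in this ratio. Without control replicate 1 the mean control ratio was 1.32 in place of 1.65, against 1.13 after GSKA. Both sums leave out family genes beyond the members, so the ratio depends on the genes chosen. PMAIP1 alone, a BH3-only gene outside the sum, was at 22.7 to 39.4 FPKM in the controls and 21.4 to 29.9 FPKM after GSKA.

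Genes around the family were taken from 7 lists that hold 111 distinct genes of the files, of which 90 were tested. By limma, 0 of the 90 had an adjusted p under 0.05, and at an unadjusted p under 0.05, 8 were higher and 7 lower. Over all tested genes 9.4% were higher and 4.03% lower at this threshold, and these are the shares against which each list count below stands. Among other BCL2 family genes, 0 of 9 tested were higher (9.4% of all tested genes) and 2 lower (4.03%) at an unadjusted p under 0.05, and the median log2 fold change was -0.09. BCL2L12, a BCL2-like protein, was at 50.1, 62.1 and 36.9 FPKM without the inhibitor and 19.4, 28.1 and 16.5 FPKM with it (log2 fold change -1.19, adjusted p = 0.117 from limma). BAD, a BH3-only protein that binds BCL2L1, was at 19.3, 13.4 and 15.4 FPKM and at 8.99, 6.73 and 10.1 FPKM (log2 fold change -0.83, adjusted p = 0.271). Of the 9 tested, groups did not overlap for 3 that were lower (6.45% of all tested genes) and 0 that were higher (12.9%). The 3 were BCL2L12, BAD and BCL2L13. BCL2L2 and BCL2L14 were at log2 fold changes of 0.60 and -0.58 with overlapping groups. PMAIP1 (NOXA), the BH3-only partner of MCL1, was at 22.7 to 39.4 FPKM without the inhibitor and 21.4 to 29.9 FPKM with it, above BCL2L11, BID and BBC3 in every library.

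The next list holds proteins that act on MCL1, BID and BAK1 or on mitochondrial shape. At an unadjusted p under 0.05 from limma, 4 of 20 were higher (9.4% of all tested genes) and 2 lower (4.03%), with a median log2 fold change of -0.10. HUWE1, a ubiquitin ligase of MCL1 in human cells, was at 5.48, 5.13 and 5.85 FPKM without the inhibitor and 2.46, 2.04 and 1.77 FPKM with it (log2 fold change -1.08, adjusted p = 0.209 from limma). FBXW7 and BTRC, substrate receptors of other ligases that act on human MCL1, were at log2 fold changes of 0.67 each (adjusted p = 0.304 and 0.313). MTCH2, the mitochondrial docking protein of BID in the mouse, was at 24.6, 35.1 and 41.7 FPKM and at 49.9, 71.8 and 63.7 FPKM (log2 fold change 0.87, adjusted p = 0.193). VDAC2, an outer membrane channel that binds BAK1, was at 0.60, and the fission factor FIS1 at -0.56 (log2 fold changes, adjusted p = 0.340 and 0.346). Of the 20 tested, groups did not overlap for 4 that were higher (12.9% of all tested genes) and 2 that were lower (6.45%). These are the 6 genes named here.

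Downstream of the mitochondrion, 0 of 8 tested genes of the apoptosome and caspases were higher (9.4% of all tested genes) and 1 was lower (4.03%) at an unadjusted p under 0.05 from limma (median log2 fold change -0.16). That gene was DFFA, the inhibitor of the apoptotic nuclease (log2 fold change -0.84, adjusted p = 0.286). CASP9, the caspase of the apoptosome, reached the filter through the control libraries. It was at 2.10, 2.09 and 2.20 FPKM without the inhibitor and 0.970, 1.77 and 0.752 FPKM with it, without overlap (log2 fold change -0.56, adjusted p = 0.559). DIABLO, which frees caspases from their inhibitors, was also lower in each GSKA library and CASP6 higher (log2 fold changes -0.36 and 0.31). Of the 8 tested, groups did not overlap for 3 that were lower (6.45% of all tested genes) and 1 that was higher (12.9%). APAF1, the scaffold of the apoptosome, was at 1.303 to 2.61 and 1.16 to 1.92 FPKM, with overlap, and CASP8 was at or near 0 in all libraries. Of the inhibitors of apoptosis 0 of 5 had an unadjusted p under 0.05 in either direction, with BIRC5 (survivin) at 112 to 155 and 107 to 148 FPKM, BIRC3 at a log2 fold change of -0.32 and XIAP at 0.24. In the death receptor pathway 1 of 4 tested genes was higher (9.4% of all tested genes) and 0 lower (4.03%). That gene, RIPK3, a kinase of necroptosis, reached the filter through the GSKA libraries. It was listed at 0 in control replicates 1 and 2 and at 1.47 FPKM in control replicate 3, against 1.92, 2.85 and 1.9 FPKM after GSKA (log2 fold change 1.24, adjusted p = 0.249). CFLAR, RIPK1 and FADD were at log2 fold changes of -0.70, 0.40 and 0.38.

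Of the 17 tested genes in the list of regulators and relatives of p53, 0 had an unadjusted p under 0.05 in either direction by limma. MDM4, the partner of MDM2, was at 18.5, 16.3 and 39.8 FPKM without the inhibitor and 57.1, 55.9 and 23.1 FPKM with it, higher in GSKA replicates 1 and 2 than in any control (log2 fold change 0.85, adjusted p = 0.383). PPM1D, the phosphatase that dampens p53, had a log2 fold change of -1.04 and an adjusted p of 0.391, and PPP1R13B and DAXX were at 0.37 and -0.41.

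Other p53 target genes did not share a direction. At an unadjusted p under 0.05 from limma, 3 of 27 were higher (9.4% of all tested genes) and 2 lower (4.03%), with a median log2 fold change of 0.29. Groups did not overlap for 7 that were higher (12.9% of all tested genes) and 4 that were lower (6.45%). BTG2, an antiproliferative gene counted among the 2 lower, reached the filter through the control libraries. It had 2.56, 4.93 and 2.91 FPKM in control libraries, 1.33 FPKM in GSKA replicate 1 and a listed value of 0 in the other GSKA libraries (log2 fold change -1.71, adjusted p = 0.126). The stress genes GADD45A and GADD45G differed in opposite directions, at log2 fold changes of -0.55 and 0.86 (adjusted p = 0.268 and 0.249). GADD45A was at 517, 631 and 458 FPKM without the inhibitor and 338, 391 and 363 FPKM with it, the highest level of this list. PERP, a membrane protein of desmosomes, was at a log2 fold change of 1.49, from 1.74, 0.799 and 9.12 FPKM without the inhibitor and 7.85, 10.4 and 9.92 FPKM with it (adjusted p = 0.249). CDKN1A (p21), the best known p53 target, was at 1.86 to 3.64 FPKM without the inhibitor and 1.42 to 2.20 FPKM with it, with overlap (log2 fold change -0.45, adjusted p = 0.655).

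**Figure D4:**
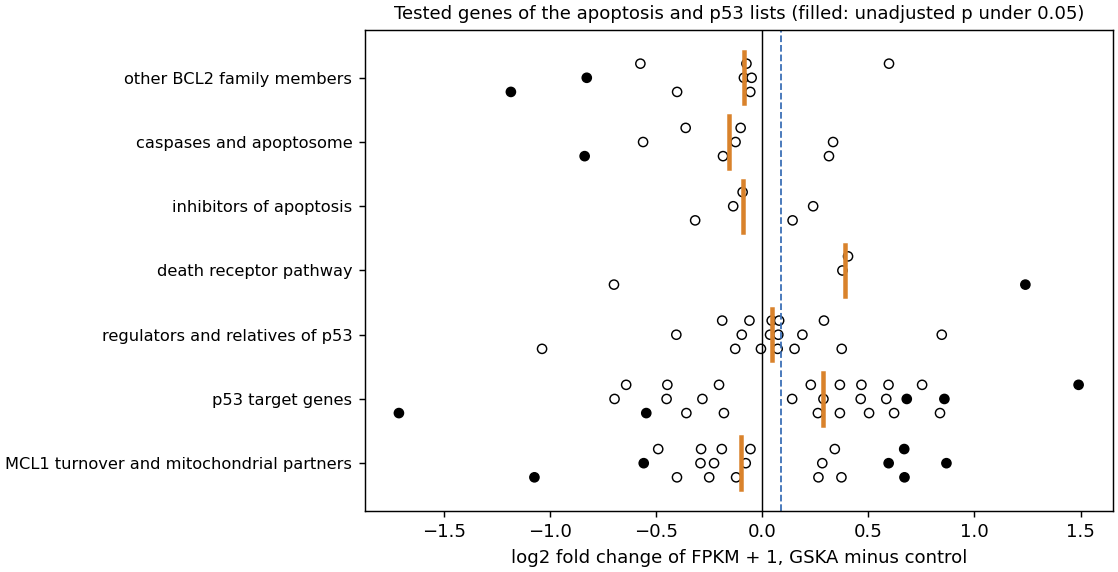
Log2 fold change of FPKM + 1 (GSKA minus control, x axis) of each tested gene in 7 lists, 1 row a list. Filled points have an unadjusted p under 0.05 from limma, orange bars are list medians and the dashed line is the median of all tested genes, 0.09. The medians run from -0.16 for caspases and apoptosome to 0.39 for the 4 tested genes of the death receptor pathway, and no point has an adjusted p under 0.05.

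The genes whose log2(FPKM + 1) followed each member most closely over the 6 libraries were taken from 9402 tested genes with a symbol, as a description. For MCL1 these were KIF20A, a kinesin of cell division (Pearson r = 0.996), EIF1, which helps the ribosome select the start codon (0.994), and the small Cajal body RNA SCARNA7 (0.992). EIF1 was at 2252, 1614 and 1975 FPKM without the inhibitor and 1360, 1415 and 1345 FPKM with it, in the same order of controls as MCL1. For BCL2L1 they were CCDC66, the ribosome assembly factor BRIX1 and the potassium channel KCND2 (r = 0.999, 0.998 and 0.998). BRIX1 was at 121, 87.9 and 177 FPKM without the inhibitor and 259, 249 and 257 FPKM with it, so its GSKA libraries were also close together and above the controls. For BCL2L11 they included the monoamine oxidase MAOA (r = 0.985) and TMEM39B (0.978).
BAX was followed by CCDC181, the cilium gene IFT88 and the desmosome gene DSC2 (r = 0.990, 0.989 and 0.988). BID was followed by SERPINB5, SNORD24 and YOD1 (0.986, 0.984 and 0.982), and MDM2 by TRMT61B and THG1L, which act on transfer RNA, and the mitochondrial ribosomal gene MRPL39 (0.987, 0.987 and 0.983). Each r is the highest found over 6 points, and points of the same group share a treatment. The likeness of EIF1 to MCL1 and of BRIX1 to BCL2L1 follows from choosing genes by r. Between the members r ran from -0.85 for BAX and BID to 0.83 for BCL2L1 and MDM2.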

How the data were processed

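Libraries were made with SMART-Seq v4, and the authors deposited 1 FPKM per gene and library. Cutadapt 1.9, HISAT2 2.0.4, StringTie 1.3.4d and edgeR appear in the submitters' processing notes, and no source used here gives a build. A table of the authors' own comparison (folds, p and q values) was left out. Low FPKM values showed no steps of whole reads, so depth is unknown and no count test was run. In R 4.3.3, limma 3.58.1 was fitted to log2(FPKM + 1) with an intensity trend and group as the only term, over the 10654 of 18862 genes that reached 1 FPKM in 3 or more libraries. A gene present in 1 group can pass this filter through that group alone, and the scale understates folds of low genes. The Benjamini-Hochberg method covered all tested genes. Run on simulated data, the fit called most of the large planted changes and missed most of the smallest. Changes were planted only in genes with a higher mean level than BCL2L1, BCL2L11, BAX and MDM2, so this outcome does not cover those genes. Even the smallest planted change was larger than the log2 fold change of any member in the main fit. The outcome therefore does not cover differences of the size seen in the members. The 17 alternatives varied pseudocount, filter, scaling, variance model, replicate block and libraries. Symbols come from the files (15346 genes have one). Named genes were the 9 members, up to 4 genes per list with the smallest p, list genes fixed by name (BCL2L10 is not analysed here) and the 3 genes most like each member. Some genes that this rule names are not reported here, and those in the lists were left out of the list counts. Others, such as VDAC2, FIS1 and DIABLO, were named after their values were seen. Members and lists were chosen with earlier results of these data known.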

Additional observations from a re-analysis of the deposited data

How the results depend on the processing

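The direction of all 6 tested genes held in every alternative that could be fitted, and none was called in any (17 alternatives; 16 for BCL2L1 and BCL2L11, which do not reach an FPKM of 5 in 3 libraries). For MCL1 the log2 fold change ran from -1.08 to -0.67, the unadjusted p was under 0.05 in 17 of 17 alternatives, and the adjusted p ran from 0.130 to 0.512 (limma). For BCL2L11 it ran from -1.03 to -0.68, with an unadjusted p under 0.05 in 10 of 16, the exceptions being the replicate block and the fits without control replicate 1, 2 or 3 or GSKA replicate 1 or 2. BCL2L1 (0.47 to 0.78), BAX (0.27 to 0.67), BID (-0.56 to -0.25) and MDM2 (0.14 to 0.62) had none under 0.05. The count of tested members lower at an unadjusted p under 0.05, 2 in the report, was 1 with the replicate block, 1 when 5 FPKM was required in 3 libraries, and 1 to 2 with 1 library left out. Under TPM scaling 4 of the 6 tested members had no overlap between the groups in place of 3, BAX being the addition (BAK1, not tested, had none on either scale). These 2 sets of counts were added after seeing the data. The share of all tested genes without overlap is given for FPKM only, so the TPM count has no share beside it.

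The count of all genes called, 38, was 15 with a pseudocount of 0.1, 0 over all 18862 genes (limma, where 1664 had an unadjusted p under 0.05), 21 after median scaling, 7 without the intensity trend and 19 with the replicate block. It ran from 4 to 42 with 1 library left out, and was 24 without control replicate 2 and 6, 10 and 4 without GSKA replicates 1, 2 and 3. Of all calls, 24 were higher and 14 lower. The split was 7 and 14 after median scaling and 14 and 15 after quantile normalization, both of which bring the median of all genes, 0.09 on the log2 scale, to about 0. The survival to death-promoting ratio differed by -0.53 (GSKA minus control), and by -0.80 to -0.19 with 1 library left out. Libraries with the same number did not deviate together (r = -0.08, 0.14 and -0.12), so the numbers were not taken as pairs, and the block changed no call of a member. FPKM keeps no counts, so no counting error can be set beside the low values of BAK1, BCL2 and BBC3.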
